A study of Mus musculus with 165 samples.

Results

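The 7 genes Ly6c1, Ly6c2, F13a1, Adgre1, Mmp12, Cd68 and Mpeg1, which are widely used as markers of monocytes and macrophages, were followed by RNA-Seq through a dense differentiation time course of a mouse myeloid progenitor line. They were chosen by name, without reference to a threshold but with earlier results of these data known. They are 7 of the 36255 genes in the table of normalized read counts. All 7 had a normalized count of at least 5 in 1 library or more and were therefore among the 17414 genes tested. Counts of members that passed a test are set beside the percentage of all tested genes that passed it, in the same comparison.

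The cells were PUER cells, a single progenitor line derived from PU.1 -/- mice, in which the transcription factor PU.1 (gene Spi1) is supplied as a fusion to the ligand-binding part of the estrogen receptor. The fusion is activated by 4-hydroxy-tamoxifen (OHT), and every group, the starting cells included, carried both the PU.1 -/- genotype and the fusion. The undifferentiated group was grown in interleukin 3 (IL3) without OHT, and its 3 libraries serve as the starting point of both arms. The macrophage arm (IL3-OHT) received 200 nM OHT in IL3 medium, whereas the neutrophil arm was first kept for 48 h in granulocyte colony stimulating factor (GCSF) in place of IL3, sampled without OHT (GCSF 0h), and then given 100 nM OHT (GCSF-OHT).

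Both OHT arms were sampled at 27 time points from 1h to 168h, giving 56 groups, of which 53 held 3 libraries and 3 held 2 libraries (GCSF-OHT 96h, 112h and 152h). Fresh OHT was added with new medium at 40h, 88h and 136h. The OHT dose differed between the cytokines, so dose and cytokine cannot be told apart, nor can a time point and the culture plate it was grown on. Cells sampled after 24h were detached with trypsin. Libraries held between 14600246 and 33147945 reads with a median of 21960878, and 3 reads corresponded to a normalized count of 1.96 to 5.51. All replicates came from the one line, and each time point was seeded in a plate of its own. The p-values therefore measure the spread between cultures of a time point, not between repeated time courses. Spi1 counts, which do not separate the fusion from the cells' own Spi1 locus, were high in all libraries (4482 to 13387 normalized counts). The receptor gene Csf1r, a defining marker of monocytes and macrophages, stayed at 0 to 56.3 normalized counts in every library.

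Monocytes leave the marrow carrying high amounts of the surface protein Ly6C, and in tissues they can become macrophages that lose Ly6C and gain the adhesion receptor F4/80. PU.1 is required for both fates and for neutrophils, and it binds DNA through a purine-rich core. In the mouse, Ly6C is encoded by the neighbouring genes Ly6c1 and Ly6c2, of which Ly6c2 is the form of inflammatory monocytes. F13a1 encodes the A chain of coagulation factor XIII, a transglutaminase carried by monocytes. Adgre1 encodes F4/80, Mmp12 encodes macrophage elastase, Cd68 encodes a heavily glycosylated lysosomal membrane protein, and Mpeg1 encodes perforin-2, a pore-forming protein of the phagosome that acts on engulfed bacteria. Because RNA was measured in bulk, fewer cells of a type and less RNA per cell cannot be told apart in any result given here.

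The Ly6C genes lie 59327 bases apart on chromosome 15 of GRCm38, both on the minus strand: Ly6c1 at chr15:75044018-75048830 and Ly6c2 at chr15:75108158-75111970. Their coding sequences are both 393 bases long, differ at 9 positions and are 97.7% identical. The first 120 coding bases, read from the GENCODE vM21 transcripts, hold 6 of those differences. They are shown as the coding stretch with the most differences. Capitals mark the positions that differ.
Ly6c1: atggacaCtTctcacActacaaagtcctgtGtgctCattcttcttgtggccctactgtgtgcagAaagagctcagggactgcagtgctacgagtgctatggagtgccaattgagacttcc
Ly6c2: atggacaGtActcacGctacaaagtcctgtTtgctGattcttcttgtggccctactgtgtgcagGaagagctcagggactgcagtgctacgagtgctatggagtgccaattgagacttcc
Of the 814 windows of 31 bases in the Ly6c1 transcript, 391 (48.0%) also occur in the Ly6c2 transcript, and of the 695 windows of 150 bases, 39 (5.61%) do. Short shared stretches can therefore move reads between the genes, and the low Ly6c1 values are given with that limit.

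The other members lie apart from each other: Mmp12 at chr9:7344381-7369499 (plus strand), Cd68 at chr11:69664213-69666153 (minus), F13a1 at chr13:36867178-37050244 (minus), Adgre1 at chr17:57358691-57483527 (plus) and Mpeg1 at chr19:12460779-12465283 (plus), all in GRCm38. RefSeq promoter windows of GRCm38.p6, from 250 bases before to 50 bases after a start site, were available for 6 members (10 windows) and were searched on both strands for the core GAGGAA and for its extension GAGGAAGT, which contains the core. Of all 32851 windows, 28.3% hold GAGGAA and 3.2% hold GAGGAAGT. Windows of 5 members hold the core (Ly6c1, Ly6c2, F13a1, Mmp12 and Cd68) and windows of 4 hold the extension (Ly6c1, Ly6c2, F13a1 and Mmp12). Some members have several windows, which can overlap, so these counts of members are not comparable with the percentages of windows. Neither was found in the Mpeg1 window, and no window was available for Adgre1. Stretches of 60 bases around the extension are printed for both Ly6C genes and for Mmp12, with the match in capitals. In these members the match lies before the start site of a window that holds it. The Ly6c1 stretch also lies within the gene span given above, so it is after the outermost start of that gene. The sequences are those of the gene's own strand, so the Mmp12 match appears as the reverse complement.
Ly6c1, chr15:75048757-75048816, minus strand: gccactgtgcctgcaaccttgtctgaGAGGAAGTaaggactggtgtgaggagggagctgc
Ly6c2, chr15:75112046-75112105, minus strand: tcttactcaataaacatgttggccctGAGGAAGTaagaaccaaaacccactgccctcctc
Mmp12, chr9:7344283-7344342, plus strand: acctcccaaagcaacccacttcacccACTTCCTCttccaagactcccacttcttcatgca
A match of letters is a description of the window and was not tested as a binding site.

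The 7 genes did not behave as one group. Ly6c2 was the most abundant member in all starting cells and declined, and F13a1 and Cd68 moved in opposite ways between the cytokines. Adgre1 rose from near the detection limit in both arms, Mmp12 reached higher levels in IL3, and Mpeg1 rose mainly in GCSF. Levels of different genes were set side by side per kilobase of 1 GENCODE vM21 transcript per gene, the one with the longest coding sequence. On that scale the undifferentiated cells held 26815 normalized counts of Ly6c2, 2208 of Cd68, 148.7 of F13a1, 69.6 of Mpeg1, 20.9 of Ly6c1, 2.67 of Adgre1 and 1.65 of Mmp12. After 168h in GCSF-OHT, Ly6c2 stood at 12762.5 per kilobase, Cd68 at 1563 and Mpeg1 at 1332. After 168h in IL3-OHT, Cd68 (3444 per kilobase) remained well above Mpeg1 (146 per kilobase) and Adgre1 (103.2 per kilobase). The transcripts in use were not measured, and other annotated coding transcripts differ in length. With the longest one of Cd68 its level in GCSF-OHT 168h was 1281 per kilobase, below Mpeg1, and with the shortest annotated ones the undifferentiated levels of Ly6c1, Adgre1 and Mmp12 were 41.7, 25.3 and 16.5, so neither of these orders is fixed.

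**Figure D1:**
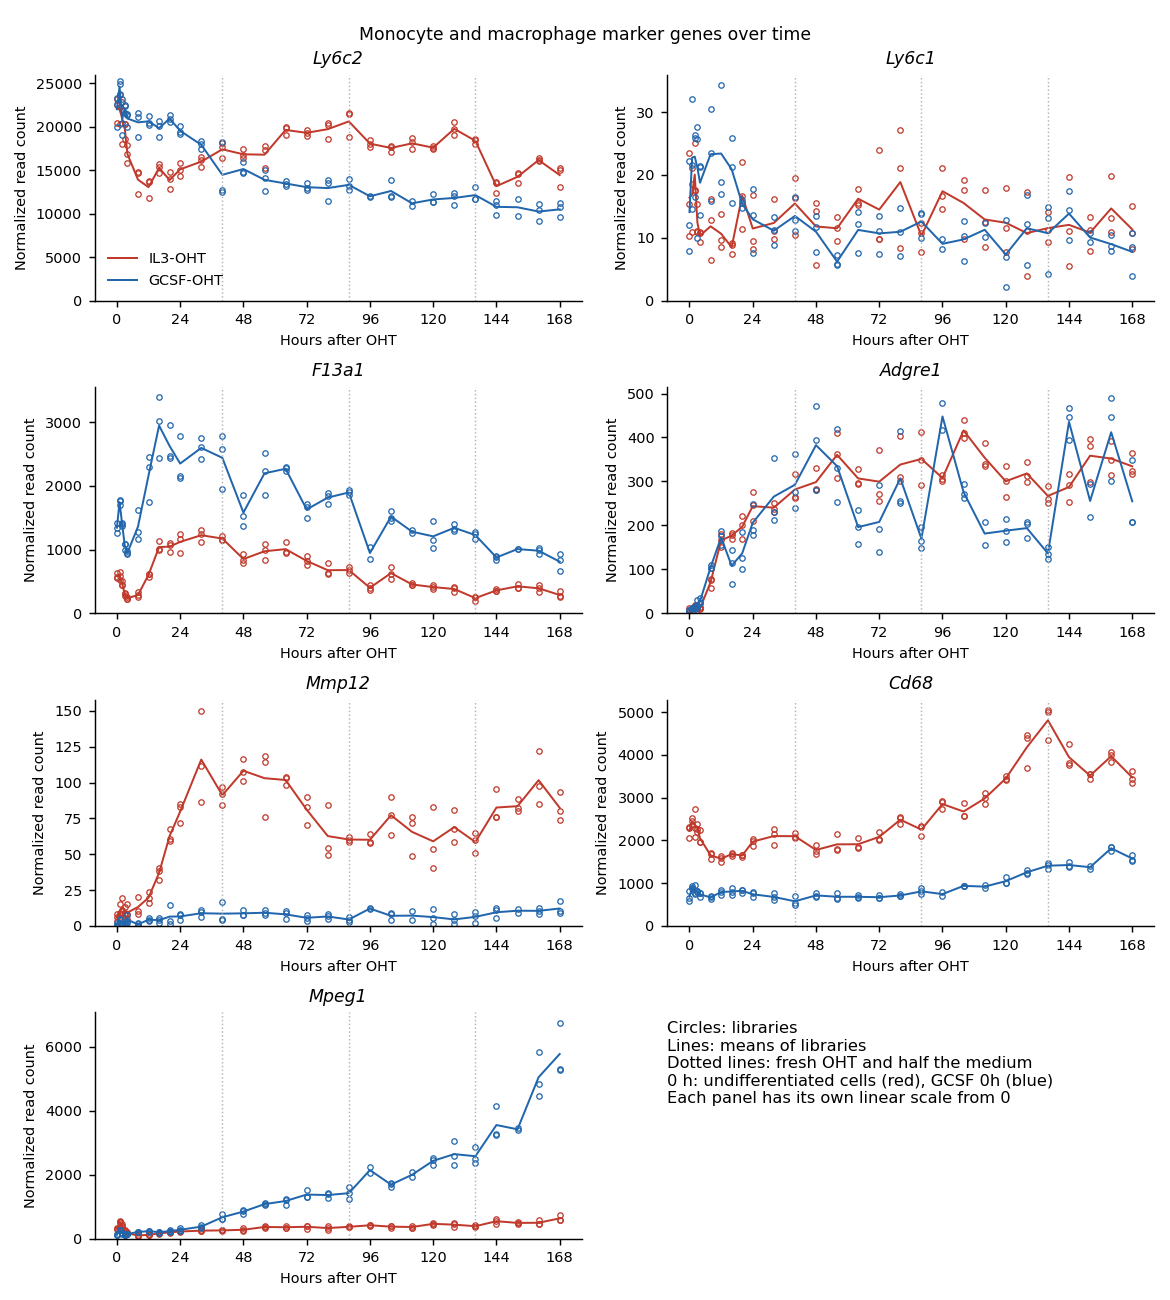
Normalized read counts of the 7 genes against hours after OHT, with 1 panel and 1 linear scale per gene. Circles are libraries, lines are group means, red is IL3-OHT and blue is GCSF-OHT, with undifferentiated cells and GCSF 0h at time 0, and dotted lines mark fresh OHT and medium. The plot shows Mpeg1 climbing to 5772 in GCSF-OHT while no IL3 library exceeds 723, Cd68 and Mmp12 higher in IL3-OHT, and F13a1 higher in GCSF-OHT throughout.

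The comparison of GCSF 0h with undifferentiated cells describes the state after 48 h in GCSF in place of IL3, before PU.1 was activated. Added GCSF and removed IL3 cannot be told apart in this comparison. F13a1 rose, the lysosomal and phagosomal genes Cd68 and Mpeg1 fell together with the low-level gene Mmp12, and the Ly6c2 means were nearly equal. F13a1 was at 573, 558 and 631 normalized counts in the undifferentiated libraries and at 1420, 1263 and 1344 in the GCSF 0h libraries. Cd68 was at 2288, 2322 and 2067 before and at 817, 584 and 646 after GCSF. Mpeg1 was at 289, 296 and 320 before and at 128, 100 and 114.6 after GCSF. For these 3 genes the libraries of the groups did not overlap.

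The log2 fold change was 1.19 for F13a1 (SE 0.12, limma adjusted p = 5.57e-16), -1.72 for Cd68 (SE 0.09, limma adjusted p = 3.48e-37) and -1.40 for Mpeg1 (SE 0.11, limma adjusted p = 1.98e-21). A gene was called when its limma adjusted p was below 0.05 and its log2 fold change on the log2(normalized count + 1) scale was beyond 0.58 in either direction. By this rule 1 member was higher and 4 were lower in GCSF 0h, where 33.7% of all tested genes were called (13.0% higher, 20.7% lower). Ly6c2 means were 22042 in undifferentiated and 22001 in GCSF 0h cells, and its log2 fold change was -0.00 (SE 0.08, limma adjusted p = 0.988).

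Adgre1 and Mmp12 were close to the detection limit in both groups. Adgre1 was at 7.85, 5.11 and 13.0 normalized counts in undifferentiated and at 8.32, 4.43 and 2.80 in GCSF 0h libraries, which overlapped, and its call (log2 fold change -0.66, limma adjusted p = 0.0168) was lost when replicate 3 was left out of every group, with a log2 fold change of -0.05, and with a pseudocount of 5 (limma adjusted p = 0.0908), edgeR (adjusted p = 0.453) and DESeq2 (adjusted p = 0.223). Mmp12 had 15 reads in the undifferentiated libraries together and 3 in the GCSF 0h libraries, a ratio of 6.35 with an exact 95% counting interval from 1.80 to 34.2 that covers counting error only.

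Mpeg1 rose within the first hour of OHT in both arms and fell back within hours. In IL3 it was at 540, 524 and 530 at 1h, against 289 to 320 at the start, and at 98.5, 88.9 and 84.7 by 8h. In GCSF it was at 280, 255 and 274 at 1h, against 100 to 128 at the start, and at 108.2, 125.5 and 109 by 3h. The first step from 0h to 1h was called in both arms, with a log2 fold change of 0.82 in IL3 (SE 0.11, limma adjusted p = 5.56e-09) and of 1.24 in GCSF (SE 0.11, limma adjusted p = 2.91e-17). Across all genes, 4.42% were called between 0h and 1h in IL3 and 6.05% in GCSF. Called steps down in IL3 ended at 3h (from 2h, -0.74) and at 8h (from 4h, -0.88), and in GCSF at 2h (from 1h, -0.72). Mpeg1 was the only member with a called first step in IL3, and in GCSF Adgre1 (1.14) and Mmp12 (1.38, from 3 reads at 0h) passed as well.

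**Figure D2:**
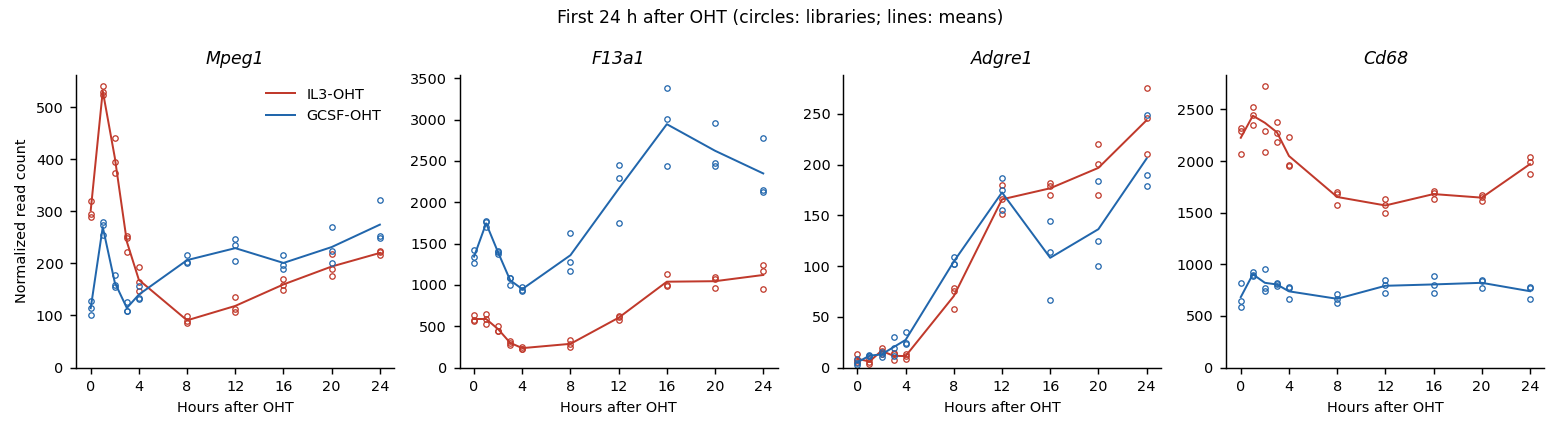
Normalized read counts of Mpeg1, F13a1, Adgre1 and Cd68 in the first 24 h after OHT, with circles for libraries and lines for means, IL3-OHT in red and GCSF-OHT in blue. The 3 libraries of Mpeg1 at 1h lie between 524 and 540 in IL3-OHT and between 255 and 280 in GCSF-OHT, above the libraries at 0h in both arms.

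F13a1 dipped and then rose. In IL3 it fell from 573, 558 and 631 to 230, 252 and 223 at 4h, where the libraries did not overlap those at 0h, and reached 1126, 1248 and 1300 at 32h. In GCSF it was at 977, 942 and 930 at 4h, below the 1263 to 1420 of the GCSF 0h libraries, and reached its highest mean at 16h (3388, 2438 and 3010). The step from 8h to 12h was called in IL3 (1.08, limma adjusted p = 6.05e-13, 6.31% of genes called) and in GCSF (0.67, limma adjusted p = 1.02e-05, 2.67% of genes called). Relative to the start, F13a1 was called higher at 7 of 25 time points in IL3 (16h to 64h) and lower at 7 (3h to 8h and 128h to 168h), and in GCSF higher at 8 of 27 (12h to 64h) and lower at 2 (144h and 168h). Over all genes and time points, 26.7% of the comparisons with the start were called in IL3 and 15.4% in GCSF.

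Adgre1 rose early in both arms, with its first called difference from the start at 1h in GCSF and at 2h in IL3 (not at 3h and 4h), and its largest step from one early time point to the next lay between 4h and 8h. In IL3 it was at 11.6, 8.67 and 13.6 at 4h, at 78.2, 57.8 and 75.2 at 8h and at 151, 180 and 166 at 12h. In GCSF it was at 34.6, 23.1 and 24.1 at 4h, at 102.1, 102.04 and 109 at 8h and at 175.3, 155.2 and 187.1 at 12h. No library at 8h overlapped those at 4h, and none at 12h those at 8h. The step from 4h to 8h was 2.55 in IL3 (SE 0.25, limma adjusted p = 2.83e-16, 10.5% of genes called) and 1.92 in GCSF (SE 0.25, limma adjusted p = 1.67e-10, 5.29% of genes called). Adgre1 was called higher than at the start at 22 of 25 time points in IL3 and at 27 of 27 in GCSF. Its highest mean was 416 at 104h in IL3 and 448 at 96h in GCSF.

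Mmp12 reached higher levels in IL3 than in GCSF. Its IL3 libraries held 6.54, 3.07 and 8.27 normalized counts at the start and 111.3, 86.7 and 150 at 32h, and it was called higher at 21 of 25 time points, all from 8h on. In GCSF it never exceeded a group mean of 12.1, reached at 168h with libraries at 8.85, 10.4 and 17.1. It was called above GCSF 0h at 24 of 27 time points, each against 3 reads in all, and the 168h libraries held 37 reads, a ratio of 13.7 with an exact 95% counting interval from 4.35 to 69.6.

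Cd68 moved slowly. In IL3 its mean fell to 1570 at 12h (libraries at 1637, 1577 and 1495) and reached 4809 at 136h (5010, 4357 and 5058). In GCSF its mean was lowest at 40h (575) and highest at 160h, with libraries at 1757, 1849 and 1837. Cd68 was called higher than at the start at 6 of 25 time points in IL3 and at 7 of 27 in GCSF. The first was at 120h in both arms, and no single step between neighbouring time points was called in either arm. Over all genes, 3.65% of gene and step pairs were called in IL3 and 1.81% in GCSF. All 120h libraries, 3 in each arm, carry another library-name prefix than the rest. Whether this marks a batch is not given in the sources used here, and it cannot be told apart from the time point. The Cd68 difference from the start was 0.42 at 112h, 0.63 at 120h and 0.90 at 128h in IL3 and 0.44, 0.63 and 0.89 in GCSF, and at 128h it was called in both arms.

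Ly6c2 declined with a different course in each arm. In IL3 its libraries fell to 13728, 13622 and 11795 at 12h, returned to 18811, 21422 and 21590 at 88h and ended at 13103, 14985 and 15219. In GCSF they were still at 21228, 20429 and 20194 at 12h and ended at 10710, 11189 and 9574. It was called lower than at the start at 5 of 25 time points in IL3 (8h, 12h, 20h, 152h and 168h). In GCSF it was called lower at 16 of 27 (at 40h and from 56h on). Ly6c1 stayed between 2 and 39 reads per library, and its change over time was not called in IL3 (limma F test, adjusted p = 0.556) and was called in GCSF (adjusted p = 4.20e-05). The other 6 members were called for change over time in both arms, where 69.7% of all genes were called in IL3 and 47.7% in GCSF.

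The states at 168h were each compared with the same undifferentiated libraries, so the comparisons of the arms share their controls and their values are given side by side. Adgre1 rose in both, Mpeg1 rose far more in GCSF, Mmp12 and Cd68 rose in IL3, and Ly6c2 fell in both. Adgre1 was at 323, 364 and 316 in IL3-OHT 168h and at 207.6, 207.3 and 349 in GCSF-OHT 168h. Mpeg1 was at 585, 723 and 587 in IL3-OHT 168h and at 5292, 5285 and 6738 in GCSF-OHT 168h. All libraries of both genes at 168h lay above all undifferentiated libraries.

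In IL3-OHT 168h, 4 members were higher and 2 were lower than in undifferentiated cells, where 25.4% of all genes were called (10.2% higher, 15.2% lower). The log2 fold change was 5.20 for Adgre1 (SE 0.25, limma adjusted p = 5.79e-39), 3.66 for Mmp12 (SE 0.44, limma adjusted p = 1.39e-12), 1.06 for Mpeg1 (SE 0.11, limma adjusted p = 1.70e-14) and 0.64 for Cd68 (SE 0.09, limma adjusted p = 1.40e-10). F13a1 fell by 1.05 and Ly6c2 fell by 0.61 on the log2 scale (limma adjusted p = 4.01e-13 and 3.41e-11). Ly6c1 was not called (-0.46, SE 0.41, limma adjusted p = 0.372). Cd68 and Ly6c2 lay close to the fold threshold, and without replicate 3 Cd68 (0.56) and without replicate 1 Ly6c2 (-0.53) were under it.

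In GCSF-OHT 168h, 2 members were higher and 2 were lower than in undifferentiated cells, where 39.1% of all genes were called (15.5% higher, 23.6% lower) and the median log2 fold change of all tested genes was -0.11. The log2 fold change was 4.76 for Adgre1 (SE 0.25, limma adjusted p = 3.51e-36) and 4.25 for Mpeg1 (SE 0.11, limma adjusted p = 6.83e-63), against -1.07 for Ly6c2 (SE 0.08, limma adjusted p = 2.07e-24) and -1.01 for Ly6c1 (SE 0.41, limma adjusted p = 0.0261). The Ly6c1 libraries overlapped, with 23.6, 10.2 and 15.4 normalized counts in undifferentiated cells and 10.8, 3.91 and 8.56 at 168h, and the call was lost with edgeR (adjusted p = 0.0524) and DESeq2 (adjusted p = 0.0518) and without replicate 1 or 2. F13a1 (0.45) and Cd68 (-0.50) were under the fold threshold, and Mmp12 (0.95, limma adjusted p = 0.0515) missed the test, which it passed with edgeR (1.11, adjusted p = 0.0408). Without replicate 3, F13a1 (0.64) and Cd68 (-0.59) were past the fold threshold.

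Against GCSF 0h, which has the same cytokine, Mpeg1, Adgre1, Cd68 and Mmp12 were higher and F13a1 and Ly6c2 lower in GCSF-OHT 168h, 4 members against 2, where 24.8% of all genes were called (12.1% higher, 12.6% lower). Mpeg1 differed by 5.65 (SE 0.11, limma adjusted p = 2.98e-75), from 128, 100 and 114.6 to 5292, 5285 and 6738 normalized counts. Adgre1 differed by 5.42 (SE 0.25, limma adjusted p = 1.07e-40). Cd68 rose by 1.22 (SE 0.09, limma adjusted p = 2.21e-25), from 817, 584 and 646 to 1511, 1550 and 1665, so its libraries did not overlap. F13a1 fell by 0.74 and Ly6c2 fell by 1.07 on the log2 scale (limma adjusted p = 6.67e-08 and 5.02e-24), and Ly6c1 was not called (-0.77, limma adjusted p = 0.114).

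**Figure D3:**
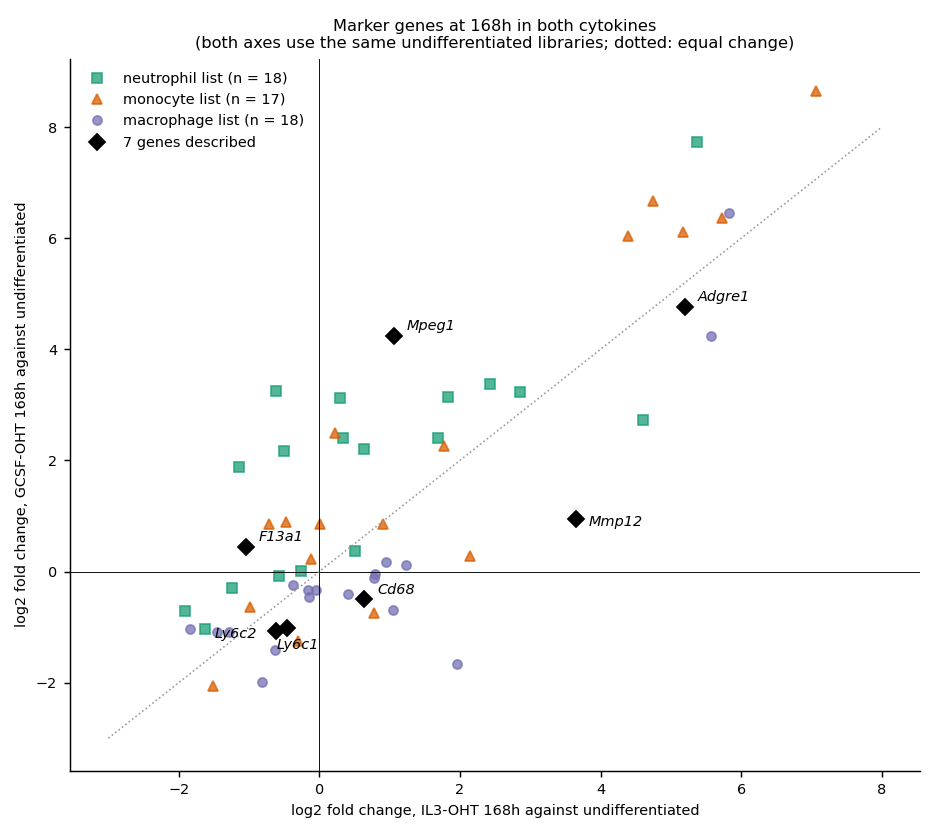
Log2 fold change at 168h against undifferentiated cells, IL3-OHT on the horizontal and GCSF-OHT on the vertical axis, for the 7 genes (diamonds) and for listed neutrophil (squares, n = 18), monocyte (triangles, n = 17) and macrophage genes (circles, n = 18). The axes share the undifferentiated libraries, and Mpeg1 lies above the dotted line of equal change (1.06 and 4.25) while Mmp12 lies below it (3.66 and 0.95).

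The cytokines were then compared directly over the 25 time points in the fit of both arms. F13a1 and Mpeg1 were higher in GCSF-OHT, Cd68 and Mmp12 were higher in IL3-OHT, and Ly6c1, Ly6c2 and Adgre1 did not reach the fold threshold on average. Thus 2 members were higher and 2 lower in GCSF-OHT, where 24.5% of all genes were called (9.34% higher, 15.1% lower). F13a1 averaged 1695 in GCSF-OHT and 652 in IL3-OHT (log2 fold change 1.47, SE 0.02, limma adjusted p = 3.13e-86). Mpeg1 averaged 1427 and 332 (1.36, SE 0.02, limma adjusted p = 3.54e-85). Cd68 averaged 917 and 2532 (-1.46, SE 0.02, limma adjusted p = 1.04e-101), and Mmp12 averaged 6.31 and 63.03 (-2.999, SE 0.09, limma adjusted p = 2.50e-60). The means of Adgre1 were 194 and 243 (-0.21, limma adjusted p = 9.85e-05), and those of Ly6c2 were 15799 and 17327 (-0.17, limma adjusted p = 7.39e-19).

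Time point by time point, 22.7% of all gene and time point pairs were called (9.97% higher in GCSF-OHT, 12.7% lower). F13a1 was called higher at 25 of 25 time points and Cd68 lower at 25 of 25, and at none of them did the libraries of the arms overlap. The ratio of means, GCSF-OHT to IL3-OHT, ranged from 1.86 at 48h to 5.17 at 136h for F13a1 and from 0.274 at 40h to 0.504 at 12h for Cd68. Mmp12 was called lower at 24 of 25 (not at 4h, limma adjusted p = 0.0583), with ratios from 0.0656 at 128h to 0.463 at 4h. F13a1, Cd68 and Mmp12 differed in the same direction between GCSF 0h and undifferentiated cells, before any OHT.

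For Mpeg1 the sign of the difference changed with time. It was called lower in GCSF-OHT at 1h, 2h and 3h, was not called at 4h, and was called higher at 18 time points, at 8h and 12h and again from 32h to 168h. The ratio of means was 0.405 at 2h and 10.2 at 160h. Ly6c2 went the other way, with calls higher in GCSF-OHT at 12h and 20h and lower at 7 time points between 80h and 160h, and its ratio ran from 1.58 at 12h to 0.598 at 128h. Adgre1 was called higher in GCSF-OHT at 1h, 3h and 4h and lower at 8 time points between 16h and 136h. Ly6c1 was called higher in GCSF-OHT at 8h, 12h and 16h, at 15.5 to 34.4 against 6.44 to 16.2 normalized counts over those 3 time points.

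**Figure D4:**
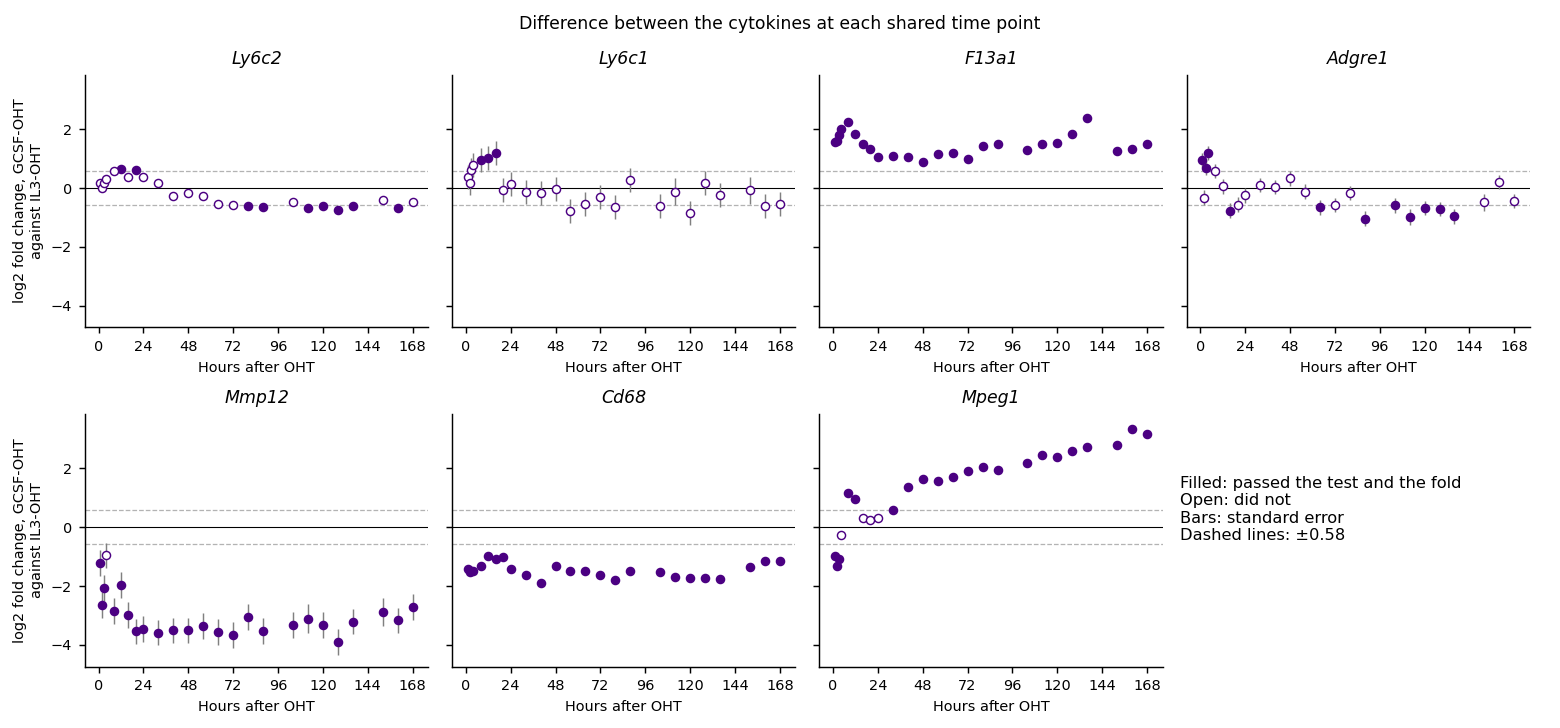
Difference of the 7 genes between the cytokines (GCSF-OHT minus IL3-OHT, log2 scale) at each of the 25 shared time points, with bars for the standard error, filled points where the test and the fold were passed, and dashed lines at the fold threshold of 0.58. F13a1 stays above and Cd68 below the threshold at all 25 points, and Mpeg1 crosses from -1.30 at 2h to 3.35 at 160h.

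Whether OHT acted differently in the cytokines was tested as the difference between the change from undifferentiated cells in IL3 and the change from GCSF 0h in GCSF. A positive value means that the change was more positive, or less negative, in GCSF. At 12h, 4 members were called, all with a positive value, where 24.7% of all genes were called (15.3% positive, 9.33% negative). The difference was 2.35 for Mpeg1 (SE 0.16, limma adjusted p = 1.19e-25), 0.73 for Cd68 (SE 0.12, limma adjusted p = 2.02e-07), 0.67 for Ly6c2 (SE 0.11, limma adjusted p = 2.06e-07) and 0.64 for F13a1 (SE 0.17, limma adjusted p = 0.00117). The calls of Cd68 and F13a1 were lost without replicate 2, at 0.54 for both genes. The change from the start to 12h was -0.76 in IL3 and -0.09 in GCSF for Ly6c2, -0.50 and 0.23 for Cd68, and 0.04 and 0.67 for F13a1. At 12h Mpeg1 had fallen in IL3, from 289, 296 and 320 to 107, 134.98 and 113, while it had risen in GCSF, from 128, 100 and 114.6 to 204.98, 236 and 247. At 168h only Mpeg1 was called (4.59, SE 0.16, limma adjusted p = 2.77e-50), where 25.7% of all genes were called (14.5% positive, 11.3% negative). Mmp12, with few reads in GCSF, was not called at 168h (-0.80, SE 0.62, limma adjusted p = 0.312). Its change from the start to 168h was 3.66 in IL3 and 2.86 in GCSF. Cd68 (0.58, limma adjusted p = 3.10e-05) and Ly6c2 (-0.46, limma adjusted p = 0.000324) were under the fold threshold, and Cd68 lay so near to it that the number of members called at 168h depended on the settings, as given in the closing section.

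Levels from 12h to 72h (early) were compared with those from 152h to 168h (late). The starting cells are not part of this comparison, so it does not separate a transient rise from a steady decline. In IL3, F13a1 was higher early (986 against 367, log2 fold change 1.42, SE 0.06, limma adjusted p = 1.50e-46), and Cd68 (1874 against 3651, -0.97) and Mpeg1 (255 against 538, -1.14) were higher late, so that 1 member was higher and 2 were lower early, where 19.5% of all genes were called (10.7% higher and 8.85% lower early). In GCSF, F13a1 (2279 against 933, 1.27, SE 0.06, limma adjusted p = 1.96e-39) and Ly6c2 (16884 against 10488, 0.67) were higher early. Mpeg1 (644 against 4745, -3.20, SE 0.06, limma adjusted p = 1.70e-80), Cd68 (715 against 1588, -1.15) and Mmp12 (7.04 against 11.1, -0.70) were higher late in GCSF, where 16.8% of all genes were called (10.5% higher and 6.34% lower early). The Mmp12 call rests on few reads and was lost without replicate 2 (-0.67, limma adjusted p = 0.0583) and with a pseudocount of 5 (-0.46).

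Fresh OHT and medium were added 8 h before the 48h, 96h and 144h samples, and each of these was compared with the mean of its neighbours 8 h on either side. Fresh OHT and fresh medium cannot be told apart here. F13a1 was lower at 96h in both arms, and Adgre1 was higher at 96h and 144h in GCSF. In GCSF, F13a1 was at 1903, 1852 and 1932 at 88h, at 1046 and 845 at 96h and at 1448, 1493 and 1610 at 104h. In IL3 it was at 630, 728 and 675 at 88h, at 402, 361 and 436 at 96h and at 543, 617 and 729 at 104h. In both arms no library at 96h overlapped a neighbour.

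The F13a1 difference at 96h was -0.85 in GCSF (SE 0.12, limma adjusted p = 6.80e-09, 4.66% of all genes called, 1.12% higher and 3.54% lower) and -0.71 in IL3 (SE 0.10, limma adjusted p = 3.52e-09, 17.5% of all genes called, 9.34% higher and 8.18% lower). At 48h it was -0.55 in GCSF (limma adjusted p = 0.00014) and -0.33 in IL3 (limma adjusted p = 0.0215), under the fold threshold. At 48h 0.35% of all genes were called in GCSF (0.161% higher, 0.19% lower) and 1.6% in IL3 (0.758% higher, 0.844% lower). At 144h it was -0.34 in GCSF (limma adjusted p = 0.0226) and 0.19 in IL3 (limma adjusted p = 0.14). At 144h 1.85% of all genes were called in GCSF (0.775% higher, 1.07% lower) and 15.3% in IL3 (8.58% higher, 6.77% lower). The IL3-OHT 96h and 144h libraries were excluded as outliers by the study's methods, so the IL3 values at those times rest on libraries that stand apart.

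Adgre1 in GCSF was at 196.6, 165.2 and 148 at 88h, at 418 and 478 at 96h and at 262, 272 and 293 at 104h. Around the next addition it was at 135.3, 150 and 123.3 at 136h, at 447, 466 and 394 at 144h and at 218 and 293 at 152h. The libraries at 96h and 144h lay above all those of their neighbours. A similar level was reached without a fresh addition 8 h earlier, at 299.8, 490 and 446 at 160h, and the step down from 160h to 168h was called (-0.71, limma adjusted p = 0.0304, 2.25% of all genes called). The difference was 1.05 at 96h (SE 0.24, limma adjusted p = 0.0004) and 1.22 at 144h (SE 0.22, limma adjusted p = 1.03e-05), and at 48h it was 0.28 (limma adjusted p = 0.481). Without replicate 2 the 96h group held 1 library and the call was lost (0.94, limma adjusted p = 0.0654). In IL3 the Adgre1 differences were -0.09, -0.30 and -0.11, and none was called. The difference between the cytokines was not tested.

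**Figure D5:**
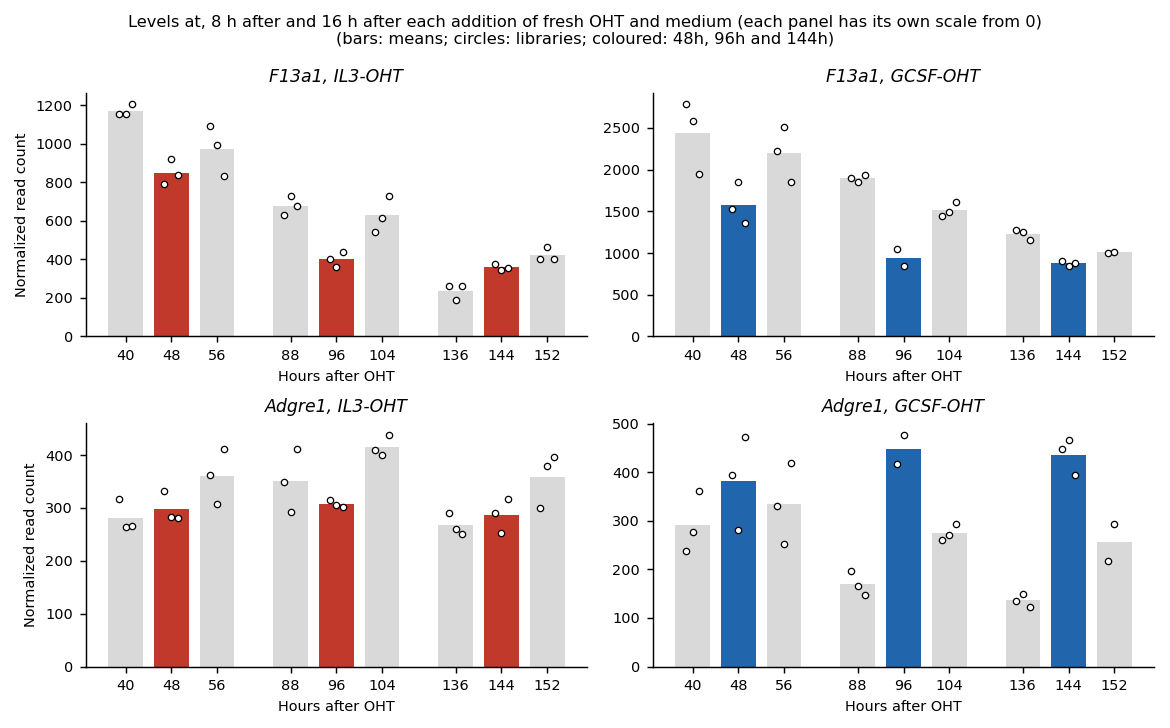
Normalized read counts of F13a1 and Adgre1 at each addition of fresh OHT and medium (40h, 88h and 136h), 8 h later (coloured) and 16 h later, with bars for means and circles for libraries and a separate linear scale from 0 in each panel. In GCSF-OHT, Adgre1 stands at 448 at 96h and 436 at 144h between neighbours of 136 to 276, and F13a1 stands at 945 at 96h between 1896 and 1517.

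The genes whose group means followed each member most closely were named by Pearson's r over 54 group means on the log2 scale, among 11442 genes. The 54 means pool both arms, so these values mix differences between the cytokines with changes over time. Neighbouring time points of an arm followed the same treatment, so the means are not independent, and the values carry no test. For Adgre1 they were Tyrobp (r = 0.97), Clec4n (0.96) and Ccr2 (0.95), and for Cd68 they were Rbpj (0.96), Il13ra1 (0.96) and Stfa2 (0.96). Mpeg1 was followed by Kcnn3 (0.95), Cxcr2 (0.95) and Gadd45g (0.94), and Mmp12 by Tbxas1 (0.95), Ccl6 (0.95) and Bcl2a1d (0.94). F13a1 was followed by Mbnl3 (0.92), Kntc1 (0.91) and Fanci (0.91), and Ly6c2 by Vkorc1 (0.92), Cst7 (0.91) and Sh3pxd2a (0.88). For Ly6c1 the values were lower (Fcgrt 0.74, Sh3pxd2a 0.71, Ly6c2 0.70), and its likeness to Ly6c2 is between genes that share sequence.

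Among the members themselves, F13a1 and Cd68 ran most strongly against each other (r = -0.84), followed by Ly6c2 and Mpeg1 (-0.76). Mmp12 and Cd68 ran together (0.77). These values also pool both arms, so they include the lower Cd68 and Mmp12 and the higher F13a1 and Mpeg1 in GCSF-OHT. Within IL3 the highest mean was at 32h for Mmp12 and at 136h for Cd68. Adgre1 had its strongest likeness within the members to Mmp12 (0.54). Mpeg1 and Cd68, which both belong to the endolysosomal system, had an r of -0.11.

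Longer lists of cell type genes were measured in the same comparisons. Of 20 listed monocyte genes 17 were tested, and 9 were higher and 2 lower at 168h in IL3-OHT (median log2 fold change 0.78), against 10 higher and 4 lower in GCSF-OHT (median 0.86), where the medians of all tested genes were -0.03 and -0.11 and 25.4% and 39.1% of them were called. Those with the largest changes were the C-type lectin genes Clec12a (means of 1.22 normalized counts in undifferentiated cells, 266 in IL3-OHT and 792 in GCSF-OHT), Clec4a3 (0.436, 69.2 and 111.4) and Clec4a1 (3.56, 119 and 449), and the chemokine receptor gene Ccr2 (49.3, 1667 and 3225), which guides monocytes out of the marrow. The undifferentiated means of the lectin genes lie near or under the level of 3 reads. All 4 passed the limma test in both arms, and the highest adjusted p among them was 3.21e-28.

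Of 25 listed macrophage genes 18 were tested, with 6 higher and 4 lower in IL3-OHT 168h (median 0.17) and 2 higher and 6 lower in GCSF-OHT 168h (median -0.37), where 25.4% and 39.1% of all tested genes were called. Lyz2, which encodes lysozyme and is also abundant in neutrophils, rose in both (5.83 and 6.45), as did the scavenger receptor gene Msr1 (5.58 and 4.24). The mannose receptor gene Mrc1 rose in IL3 from a mean of 3.71 to 16.4 normalized counts (limma adjusted p = 0.000637). In GCSF-OHT 168h it was at 0.57 and was called lower (-1.67). Also among the genes called lower were Cd163 in IL3 (-1.84) and Ctsl in GCSF (-1.98). For 7 of the 25 genes, among them the complement genes C1qa, C1qb and C1qc, no library held more than 3 reads.

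All 18 listed neutrophil genes were tested, with 7 higher and 5 lower in IL3-OHT 168h (median 0.32) and 12 higher and 2 lower in GCSF-OHT 168h (median 2.30), against the same 25.4% and 39.1% of all tested genes. Their summed level was 337088 to 344460 normalized counts in undifferentiated cells, 274644 to 308726 in IL3-OHT 168h and 779347 to 826715 in GCSF-OHT 168h, the arm in which Mpeg1 was highest. The gelatinase gene Mmp9 led both arms (5.37 and 7.73), and the GCSF receptor gene Csf3r rose in GCSF (3.25). The summed levels of the other lists were also higher in GCSF-OHT 168h than in IL3-OHT 168h for macrophage and monocyte genes. The macrophage list stood at 982100 to 1.03e+06 in IL3-OHT 168h and at 1.37e+06 to 1.43e+06 in GCSF-OHT 168h. The monocyte list stood at 34843 to 38241 and at 46569 to 49687. The part of any of these lists in the Mpeg1 levels was not tested.

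Short lists of other blood cells were read for the same states, in which 25.4% (IL3-OHT) and 39.1% (GCSF-OHT) of all tested genes were called. In IL3-OHT and GCSF-OHT at 168h, 0 and 2 of 5 tested mast cell and basophil genes were higher and 3 and 3 were lower, with Kit down in both (-1.63 and -0.84) and Hdc up in GCSF (2.95). Of 5 tested dendritic cell genes, 1 was lower in each arm (Flt3, -3.12 and -3.04) and none was higher. Of 4 tested erythroid and megakaryocyte genes 2 and 3 were lower and none was higher. Of 7 lymphoid genes 1 passed the filter (Cd79a), and it was lower in each arm.

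Relatives of the members were counted in the same way, beside the same 25.4% in IL3-OHT and 39.1% in GCSF-OHT of all tested genes. Of 13 listed Ly6 family genes 6 were tested, and 0 were called at 168h in IL3-OHT and 3 in GCSF-OHT, where Ly6a was higher (1.82), Ly6e was lower (-0.76), and Ly6m was lower at a mean of 1.81 against 8.19 normalized counts. Of 15 listed metalloproteinases and inhibitors 12 were tested, with 3 higher and 4 lower in IL3-OHT and 3 higher and 6 lower in GCSF-OHT. Next to Mmp12, the collagenase gene Mmp8 was higher (2.86 and 3.24), Mmp19 was lower in both arms (-2.03 and -2.47), and Mmp13 was lower in GCSF (-4.11). Of 10 tested relatives of Adgre1, Cd68, F13a1 and Mpeg1, 1 was higher and 4 were lower in IL3-OHT and 3 were higher and 4 were lower in GCSF-OHT. The tissue transglutaminase gene Tgm2, a relative of F13a1, fell in both arms (-3.23 and -4.14), and Adgre4, a relative of Adgre1, rose in GCSF (means of 2.10 and 23.9 normalized counts, limma adjusted p = 3.33e-08).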

How the data were processed

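PolyA RNA of the PUER time course was sequenced, and the values analysed are the table of normalized gene counts that the authors deposited, a signal in which each library's Salmon read counts for GRCm38 were divided by its DESeq2 size factor. Versions and the step from transcripts to genes were not given in the sources used here. Divided by the smallest nonzero value of its library, 100% of values came out whole (relative tolerance 1e-06), so reads were recovered for the count tests. Symbols were used as deposited, and groups came from the sample titles, except that GCSF 0h, whose titles mention OHT, was taken as without OHT from its description, treatment and time.

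Values were compared as log2(normalized count + 1) with limma 3.58.1 in R 4.3.3, with 1 mean per group and a trended prior, over the 17414 genes with at least 5 normalized counts in 1 library or more. The fit held 159 libraries in 54 groups, without IL3-OHT 96h and 144h, which the study's methods exclude. A second fit of all 56 groups gave the comparisons of 48h, 96h and 144h with their neighbours. p-values were adjusted by Benjamini-Hochberg over all genes in each comparison. The gene symbols, lists and tests were chosen with earlier results of these data known, and the comparisons at 48h and those in GCSF at 96h and 144h were added after seeing the data. Besides the 7 genes, the text names up to 4 called genes per list with the largest change at 168h, listed genes with 3 reads or fewer in every library, and the 3 genes most like each member among those with a mean of at least 10. Alternatives were pseudocounts of 0.5 and 5, other filters, upper-quartile scaling, leaving out each replicate number, a replicate block, all groups in one fit, edgeR 4.0.16 and DESeq2 1.42.0. The limma step was tested on simulated data. Gene models came from GENCODE vM21 and promoters from RefSeq (GRCm38.p6). Intervals cover counting error only.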

Additional observations from a re-analysis of the deposited data

Results flagged for a closer look

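5 values concern a difference between the cytokines in the change since the start of OHT, tested as an interaction with limma. At 12h the change was more positive, or less negative, in GCSF than in IL3 by 2.35 for Mpeg1, by 0.73 for Cd68, by 0.67 for Ly6c2 and by 0.64 for F13a1 on the log2 scale. Without replicate 2, Cd68 and F13a1 were at 0.54 and no longer called. Ly6c2 had changed by -0.76 in IL3 and by -0.09 in GCSF, and Cd68 by -0.50 and 0.23. At 168h the difference was 4.59 for Mpeg1. The direction in single libraries differed between the genes. Mpeg1 at 12h had fallen in IL3 and risen in GCSF, whereas F13a1 was at 615, 576 and 619 normalized counts in IL3, among the starting libraries (573, 558 and 631), and at 2452, 2293 and 1744 in GCSF, above all GCSF 0h libraries. Since the GCSF arm had been without IL3 for 48 h and received a lower OHT dose, these conditions cannot be told apart in the differences.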

How the results depend on the processing

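Of 231 counts of called members computed under the alternatives, 223 were within 1.5 times the reported count, and of 683 values of single genes 652 kept their direction and their side of the threshold, 15 lost the call, 13 gained it and 3 turned direction. The 3 were Ly6c2 in GCSF 0h against undifferentiated cells, a difference near 0 that was 0.0090 with upper-quartile scaling, 0.037 with edgeR, and between -0.10 and 0.10 when 1 replicate number was left out. The interaction at 168h called 1 member, but 2 with a pseudocount of 5 and 2 to 3 without 1 replicate number, where Cd68 (without replicate 1 or 3) and Ly6c2 (without replicate 2) passed the fold threshold. Leaving out 1 replicate number gave 11 to 17 calls over neighbouring time points in GCSF, against 19, with the lowest count without replicate 1, and 0 to 1 call for GCSF-OHT 48h, where F13a1 passed the fold threshold without replicate 2 (-0.59) or 3 (-0.58). For GCSF-OHT 96h it gave 1 to 2, as Adgre1 was lost without replicate 2. Groups of 2 that lost a library held 1, which is assumed to vary like the others. The cause was not tested.

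Among the comparisons whose percentage of all genes is printed, the number called in either direction, where an alternative was run, moved by over 1.5 times only on leaving out replicates: from 61 to 23 (without replicate 1) or 40 (without replicate 3) for GCSF-OHT 48h, from 322 to 53.7% of that number (without replicate 1) for GCSF-OHT 144h, from 279 to 113 for IL3-OHT 48h, from 811 to 426 for GCSF-OHT 96h and from 465 to 247 for the GCSF step from 8h to 12h (each without replicate 2).

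Libraries with the same replicate number did not deviate together: over the 1275 pairs of groups with 3 libraries, the correlations had a median of -0.00076, and in 5 pairs all exceeded 0.1. With the replicate number as a block, the calls over neighbouring time points in GCSF were 20 against 19, and the other counts of called members were as reported. Replacing Ly6c2 by the sum of Ly6c1 and Ly6c2 changed no call, with a log2 fold change of -1.07 for GCSF-OHT 168h against undifferentiated cells. DESeq2 was not run for single time points and steps. Depth limits Ly6c1, Mmp12 in GCSF, and Adgre1 before 8h, where libraries held few reads.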

Other observations

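The wider lists also differed after the 48 h in GCSF in place of IL3, without OHT. Added GCSF and removed IL3 cannot be told apart here. Of the 18 tested macrophage genes 1 was higher and 9 were lower in GCSF 0h than in undifferentiated cells (median log2 fold change -1.10), of the 17 tested monocyte genes 7 were higher and 4 lower (median 0.38), and of the 18 tested neutrophil genes 7 were higher and 4 lower (median -0.00), where the median of all tested genes was -0.09 and 33.7% of them were called. The lysosomal protease gene Ctsl fell from 6426 ± 107.5 to 1269 ± 150 normalized counts (SD, n = 3), the metalloproteinase gene Mmp19 from 14150 ± 225 to 1185 ± 40.4, and the transglutaminase gene Tgm2 from 16819 ± 407 to 3916 ± 618. Lyz2, the 1 macrophage gene that was higher, rose from 14173 ± 346 to 60097 ± 3588, and Csf3r rose from 1099 ± 75.7 to 5718 ± 403. All 5 were called by limma, and the highest adjusted p among them was 7.40e-42.

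Over the 25 shared time points, 1 of the 18 macrophage genes was higher and 10 were lower in GCSF-OHT than in IL3-OHT (median -0.78), while 12 of the 18 neutrophil genes were higher and none was lower (median 0.95), against a median of -0.06 for all tested genes, of which 24.5% were called (9.34% higher, 15.1% lower). Among the genes named above, Mrc1 (-3.06), Msr1 (-2.72) and Ctsl (-1.26) were lower and Csf3r (3.35) and Lyz2 (0.75) were higher in GCSF-OHT, each called by limma. The arms differed in OHT dose and in the 48 h of GCSF as well as in the cytokine, which cannot be told apart.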
